A study of Drosophila melanogaster with 14 samples.

Results

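Inner nuclear membrane and LINC genes were examined in larval testes after double knockdown of both lamins, to ask whether the loss of lamins is followed by a change of the transcripts of their partners. The 10 genes are LBR, the LEM-domain genes Ote, bocks and MAN1, baf, kuk, the SUN-domain genes koi and spag4, and the KASH-domain genes klar and Msp300. They were chosen by name as known components of the nuclear envelope (NE) other than the lamins, with earlier results of these data known. They are 10 of the 13776 genes in the expression tables, and all 10 had enough reads to be among the 10318 genes tested.

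The nuclear lamina (NL) is a meshwork of lamins beneath the inner nuclear membrane. Proteins of this membrane, such as LBR and the LEM-domain proteins, bind lamins and chromatin, and LEM domains bind BAF, a small DNA-bridging protein. In the LINC complex, a SUN protein in the inner membrane holds a KASH protein in the outer membrane, which connects the nucleus to microtubules or actin. In the male germline of flies, such bridges move nuclei and attach the basal body of the flagellum to the spermatid nucleus.

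RNA-seq of testes from larvae of the third instar was compared between Lam-KD males, which carried UAS-LamDm0-RNAi over the bam-Gal4-VP16 driver and UAS-LamC-RNAi over a wild-type chromosome, and control males with bam-Gal4-VP16 alone, with 3 biological replicates per group and about 200 testes in each. The bam-Gal4-VP16 driver is active in germline cells late in the spermatogonial (SpG) divisions and in spermatocytes (SpCs), so that it does not act in somatic cells of the testis, which keep both lamins, or in the earliest germline cells. Both groups carry the driver, and the 2 hairpin transgenes are present in Lam-KD males only, so that effects of the knockdown and of the transgenes cannot be told apart. In bulk testes, fewer cells of a type and less RNA per cell cannot be told apart either. Lamin-associated domains (LADs) of SpG and SpCs, obtained by DamID with the lamin Dm0 protein, served for the genomic position of the genes on 2L. The SpG LADs came from testes of adult males homozygous for a bam mutation, with the DamID constructs switched on in the germline by nos-Cre. The SpC LADs came from testes of larvae of the third instar, with other DamID constructs driven by bam-Gal4-VP16.

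The libraries held 5651960 to 7437111 expected reads in genes. Transcripts of the knockdown targets were low in each Lam-KD library, as Lam had 14.9 to 16.7 TPM (a level per transcript length, scaled to the same sum in each library) in Lam-KD and 69.7 to 96.8 TPM in control, and LamC had 7.08 to 9.36 TPM in Lam-KD and 19.2 to 32.1 TPM in control. All 11 spermatocyte markers were detected, with summed levels of 1404 to 1410 TPM in Lam-KD and 1044 to 1329 TPM in control. Larval fat body markers were abundant, with summed levels of 4732 to 7587 TPM in Lam-KD and 5917 to 8852 TPM in control. Control replicate 3 stood apart from the other controls. The chi-square per degree of freedom over genes was 12.9 and 12.2 between it and control replicates 1 and 2, against 2.34 to 4.14 between Lam-KD replicates and 5.32 between control replicates 1 and 2. Results that rest on this library are therefore given with and without it.

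The levels of the 10 genes moved little upon Lam-KD. For a call, edgeR's quasi-likelihood test had to give a P under 0.05 after Benjamini-Hochberg adjustment over all genes, together with a difference of more than 1.5-fold in mean TPM. None of the 10 genes was called, while among all genes tested 3.19% were called higher and 3.22% lower. With the adjusted P alone none of the 10 passed either, against 5.31% of all genes higher and 7.34% lower. At an unadjusted P under 0.05, koi and baf were higher and Msp300 was lower in Lam-KD, which makes 2 and 1 of 10 genes. Of all genes, 15.8% were higher and 18.5% lower at that threshold, so that both counts lie near the background. DESeq2 also gave 0 of the 10 genes at the adjusted P.

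The sizes of the differences were bounded more narrowly than the threshold of the call. For 9 of the 10 genes, the 95% interval of the edgeR fold stayed within 1.5-fold in both directions. The exception was Msp300, with an interval of 0.582 to 0.959. On the upper side, the interval of bocks reached farthest, to a fold of 1.46. On the log2 scale, 8 of the 10 differences were above 0, against 51.6% of all genes, and their median was 0.14, against 0.01 over all genes tested (quartiles -0.23 and 0.21). The 8 genes kept this direction under each scaling alternative. Marker lists of testis cells had similar medians, with 0.16 for spermatocytes (0 of 11 called, 2 higher past the adjusted P alone), 0.18 for the early germline, 0.17 for cyst cells and 0.12 for the hub. The medians for muscle, fat body and hemocytes were -0.47, -0.44 and -0.34, and that for neurons was 0.30. Genes within a list went both ways. Cyst cell genes ran from -0.66 (so, past the adjusted P alone) to 0.66 (tj, called higher). The range was -0.73 to 0.54 for fat body genes and -0.74 to 0.38 for muscle genes. Among the testis lists, the summed TPM lay apart for spermatocytes, as given above, and for the hub, with 9.83 to 10.7 TPM in Lam-KD and 8.47 to 8.92 TPM in control. The part of these cell types in the differences of the 10 genes was not tested. Without control replicate 3 the 8 differences were still above 0, but Ote and klar came down to a log2 fold change of 0.01 each and kuk to 0.04. Control replicate 3 was the lowest of the 6 libraries in TPM for 8 of the 10 genes and the highest for 1, Msp300.

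**Figure D1:**
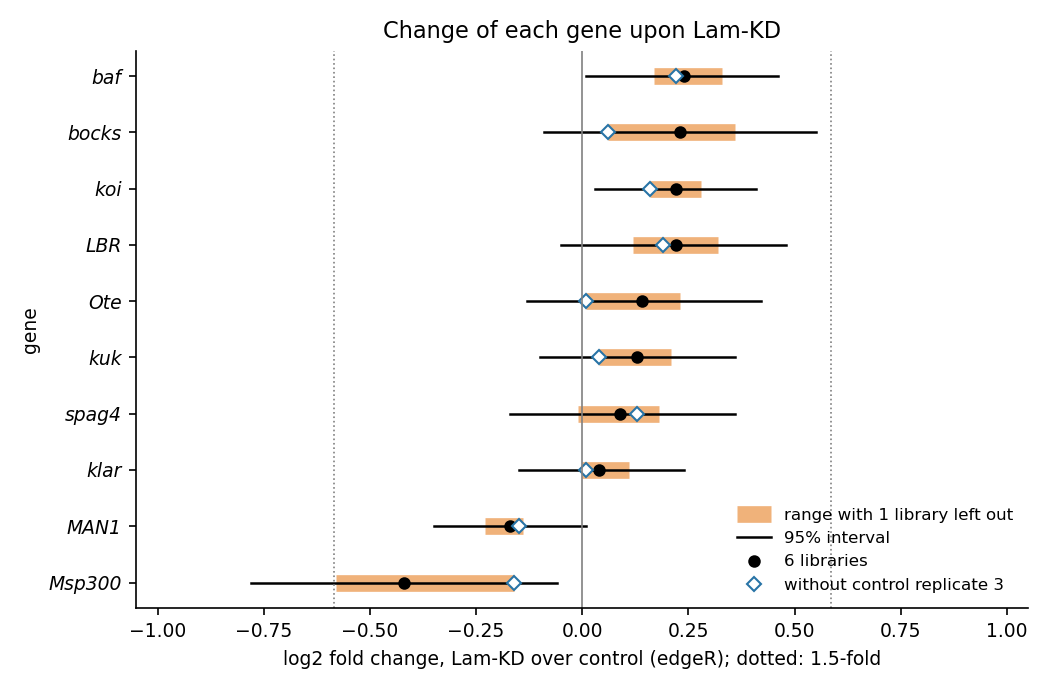
Log2 fold change of each gene upon Lam-KD over control (x axis), with 1 row per gene. Black points and lines show the edgeR estimate from 6 libraries and its 95% interval, orange bars the range when 1 library at a time is left out, open diamonds the estimate without control replicate 3 and dotted lines a 1.5-fold change. Only the interval of Msp300 crosses a dotted line, and its estimate moves to -0.16 without control replicate 3.

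The order of the genes by level per length was nearly the same in both groups. In Lam-KD the order by mean TPM was baf, MAN1, kuk, koi, spag4, Ote, bocks, klar, LBR and Msp300. In control, Msp300 stood between bocks and klar and the other genes kept their order. The libraries of neighbouring genes did not overlap between baf and MAN1, MAN1 and kuk, and koi and spag4 in either group. Levels of kuk and koi overlapped, as did those of spag4, Ote and bocks, so that the order within these sets does not exceed the spread. At the low end, klar, LBR and Msp300 overlapped in Lam-KD, whereas in control only LBR lay apart below klar. In control, the mean level of baf exceeded that of 91.9% and the mean level of LBR that of 52.9% of all genes.

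The knockdown changed the rank of Lam itself among these genes. With 14.9 to 16.7 TPM in Lam-KD, Lam overlapped with LBR, klar and Msp300 and lay below the lowest library of the other 7 genes. With 69.7 to 96.8 TPM in control, it overlapped with kuk and lay below baf and MAN1 and above the other 7 genes. The RNA of somatic cells, which keep lamins, is included in these values.

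**Figure D2:**
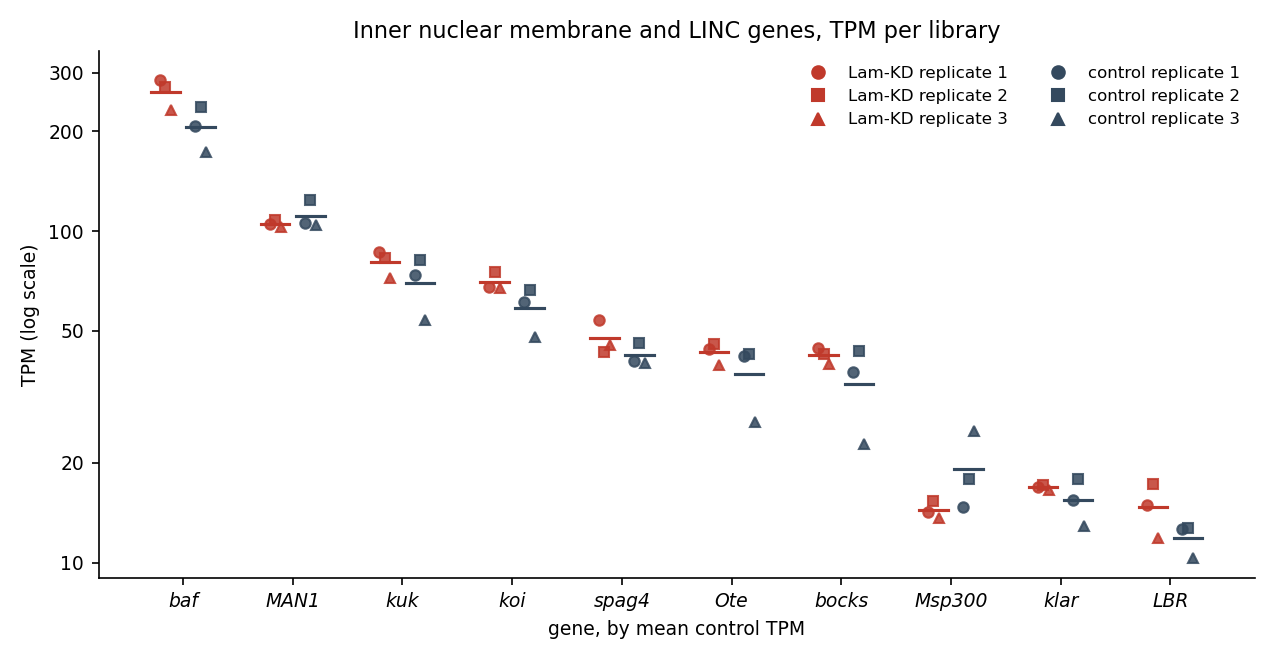
TPM (y axis, log scale) of the 10 genes in each library, ordered by mean control TPM, with Lam-KD in red on the left and control in blue on the right of each pair. Symbols mark the replicate and lines the group mean. In TPM the points of the groups overlap for all genes but koi, and control replicate 3 (blue triangle) is the lowest point for 8 genes and the highest for Msp300.

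LBR, the lamin B receptor, is an inner membrane protein of several membrane spans that binds lamin Dm0 and chromatin. LBR (FBgn0034657, 2R) had 14.9, 17.3 and 11.9 TPM in Lam-KD and 12.6, 12.7 and 10.3 TPM in control. Lam-KD replicate 3 lay within the control range and the other 2 above it. LBR differed by 0.22 on the log2 scale (SE 0.121, adjusted P = 0.222, edgeR, 3 libraries per group), and by 0.12 without Lam-KD replicate 2 and 0.32 without Lam-KD replicate 3 (adjusted P = 0.595 and 0.131). LBR was covered by 182 to 331 reads per library.

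The LEM-domain genes moved in different directions, with groups that overlapped in TPM, and none passed the adjusted P. Otefin, encoded by Ote (FBgn0266420, 2R), is needed to maintain germline stem cells in the fly ovary. Ote had 44.1, 45.7 and 39.6 TPM in Lam-KD and 42, 42.7 and 26.5 TPM in control. Control replicate 3 lay far below the other 5 libraries, and the log2 fold change of 0.14 (SE 0.125, adjusted P = 0.434, edgeR) came down to 0.01 without it. Bocksbeutel, encoded by bocks (FBgn0037719, 3R), is a LEM protein found at the NE. The bocks level was 44.4, 42.7 and 39.8 TPM in Lam-KD and 37.5, 43.6 and 22.8 TPM in control. The groups overlapped, and the log2 fold change of 0.23 (SE 0.147, adjusted P = 0.285, edgeR) was 0.06 without control replicate 3. Part of bocks overlaps P58IPK, which is expressed at a similar level (44.7 TPM in Lam-KD, 35.5 TPM in control, means), and reads of both genes may be shared, as the strandedness of the libraries is not given in the sources used here.

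MAN1 (FBgn0034962, 2R) encodes the LEM protein that binds Smads and restrains BMP signalling. It was the LEM gene with the highest level, with 105, 108 and 103 TPM in Lam-KD and 106, 124 and 104 TPM in control. In TPM the libraries overlapped almost fully, apart from control replicate 2 at the top. After TMM scaling, the scale of the test, MAN1 had 224, 222 and 229 CPM in Lam-KD and 235, 263 and 261 CPM in control, so that each Lam-KD library lay below each control. MAN1 was 1 of only 2 among the 10 genes with a negative log2 fold change, -0.17 (SE 0.0811, adjusted P = 0.155, edgeR), and its 95% interval of -0.35 to 0.01 reached 0. The precision was the highest among the 10 genes, with 1438 to 1704 reads per library.

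Added together, the 3 LEM genes gave 194, 196 and 182 TPM in Lam-KD and 186, 211 and 154 TPM in control. The Lam-KD libraries lay inside the range of the controls. The difference of the log2 sums was 0.0672 (exact permutation test, two-sided, P = 0.8, where 3 against 3 libraries cannot give less than 0.1), and it was -0.0538 without control replicate 3.

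BAF, encoded by baf (FBgn0031977, 2L), links DNA to LEM proteins and lamins. The baf transcript was the most abundant of the 10 per length, with 286, 272 and 232 TPM in Lam-KD and 208, 237 and 173 TPM in control. Lam-KD replicates 1 and 2 lay above each control and Lam-KD replicate 3 within the control range. The log2 fold change was 0.24 (SE 0.103, unadjusted P = 0.0421, adjusted P = 0.131, edgeR), the highest estimate among the 10 genes, and 0.22 without control replicate 3. The adjusted P ranged from 0.0646 to 0.41 over the alternatives.

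Kugelkern, encoded by kuk (FBgn0038476, 3R), is a farnesylated protein of the inner nuclear membrane known for shaping nuclei in the fly embryo. The level of kuk was 86.6, 83.1 and 72.2 TPM in Lam-KD and 73.6, 81.9 and 54.1 TPM in control. The groups overlapped. The difference of kuk was 0.13 on the log2 scale (SE 0.103, adjusted P = 0.385, edgeR) and 0.04 without control replicate 3.

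Of the SUN pair, koi (klaroid) is expressed in many tissues and spag4 is the SUN gene of the testis, which is needed to attach the centriole to the spermatid nucleus. The level of koi (FBgn0265003, 2R) was 67.7, 75.3 and 67.6 TPM in Lam-KD and 61.3, 66.6 and 47.9 TPM in control. All 3 Lam-KD libraries exceeded all controls, though the lowest Lam-KD library (67.6 TPM) was close to the highest control (66.6 TPM). In TPM, koi was the only gene of the 10 whose groups did not overlap, with 1 of 10 higher and 0 lower against 21.5% of all genes higher and 15.6% lower. In CPM after TMM scaling, koi lay apart upward and MAN1 and Msp300 lay apart downward, with 1 and 2 of 10 genes against 20.2% and 20.6% of all genes, close to the background. The log2 fold change of koi was 0.22 (SE 0.0868, unadjusted P = 0.0276, adjusted P = 0.104, edgeR), and 0.16 without control replicate 3 (adjusted P = 0.104).

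In contrast to koi, spag4 (FBgn0032368, 2L) had overlapping groups, with 53.9, 43.2 and 45.3 TPM in Lam-KD and 40.7, 46.1 and 40 TPM in control. Only Lam-KD replicate 1 lay above the controls. The log2 fold change of 0.09 (SE 0.121, adjusted P = 0.61, edgeR) was -0.01 without that library. With 182 to 294 reads per library, spag4 was among the least covered of the 10 genes.

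The balance of the SUN pair did not shift beyond the spread. Of the summed TPM of spag4 and koi, spag4 made up 44.3%, 36.4% and 40.1% in Lam-KD and 39.9%, 40.9% and 45.5% in control. The mean share was 40.3% ± 3.95 in Lam-KD and 42.1% ± 2.98 in control (SD, n = 3 each), a difference of -1.79 percentage points (exact permutation test, two-sided, P = 0.6). It was -0.0933 points without control replicate 3 and 0.137 points without Lam-KD replicate 2.

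Of the KASH pair, klar (Klarsicht) connects nuclei to microtubule motors and is known for nuclear migration in the fly eye. The level of klar (FBgn0001316, 3L) was 16.9, 17.1 and 16.6 TPM in Lam-KD and 15.4, 17.9 and 12.9 TPM in control. The Lam-KD libraries were close to each other and inside the control range. The log2 fold change was 0.04 (SE 0.0886, adjusted P = 0.771, edgeR), the smallest difference of the 10 genes. CG34269 lies within klar and had mean levels of 76.3 TPM in Lam-KD and 91 TPM in control with up to 237 reads, so that a part of the reads may be shared.

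Msp300, a giant spectrin-repeat KASH protein of the outer nuclear membrane, binds actin and is best known from muscle. The level of Msp300 (FBgn0261836, 2L) was 14.2, 15.3 and 13.6 TPM in Lam-KD and 14.7, 17.9 and 24.9 TPM in control. The Lam-KD libraries were close together, whereas the controls spread widely, with replicate 1 inside the Lam-KD range and replicate 3 far above. The log2 fold change of -0.42 (SE 0.164, unadjusted P = 0.026, adjusted P = 0.101, edgeR) had the largest size of the 10 genes. Without control replicate 3 it was -0.16 (adjusted P = 0.106), and without control replicate 1 it was -0.58 (adjusted P = 0.0473). Msp300 thus passed the adjusted P without control replicate 1, but was not called, as its mean TPM then differed by less than 1.5-fold.

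Because Msp300 is a long gene with many isoforms, the mean length of its transcripts, weighted by their estimated abundance, was compared as well. This length was 24385, 24479 and 24456 bp in Lam-KD and 23904, 23614 and 21381 bp in control. All Lam-KD values exceeded all control values, and control replicate 3, with the highest TPM, had the shortest mean transcript. The difference was 0.0915 on the log2 scale (exact permutation test, two-sided, P = 0.1, the smallest that 3 against 3 libraries allow) and 0.0408 without control replicate 3. How many of all genes had lengths apart in this way was not determined. Expected reads of Msp300 were 3209, 3206 and 2930 in Lam-KD and 3072, 2945 and 4211 in control. After TMM scaling they came to 422, 441 and 428 CPM in Lam-KD and 446, 517 and 766 CPM in control, so that the groups lay apart on this scale, narrowly for control replicate 1, while they overlapped in TPM.

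The summed level of muscle markers differed between the groups as well, though not each marker in the same direction. The 8 markers measured summed to 13.8, 13.1 and 12.2 TPM in Lam-KD and 15.3, 17.4 and 15.2 TPM in control, without overlap. Mhc, the muscle myosin heavy chain, fell by 0.71 on the log2 scale (adjusted P = 0.0429, edgeR, and up to 0.163 over the alternatives) and was the only one of them called. The giant sarcomere genes sls and bt were lower past the adjusted P alone (0.0358 and 0.0376, up to 0.164 and 0.173), and Mlc1, up, bt and Tm2 had mean levels under 1 TPM. The largest contribution to the sum came from sls, with 7.93, 7.56 and 7.1 TPM in Lam-KD and 8.56, 9.74 and 9.47 TPM in control. The actin gene Act57B was not past the adjusted P and had higher values in Lam-KD, with 2.45, 2.27 and 2.71 TPM in Lam-KD and 2, 1.88 and 1.55 TPM in control (log2 fold change 0.38, adjusted P = 0.302, edgeR). In control replicate 3, where Msp300 was highest, the muscle sum was 15.2 TPM, no higher than in the other controls. The part of muscle RNA in the Msp300 difference was not tested.

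**Figure D3:**
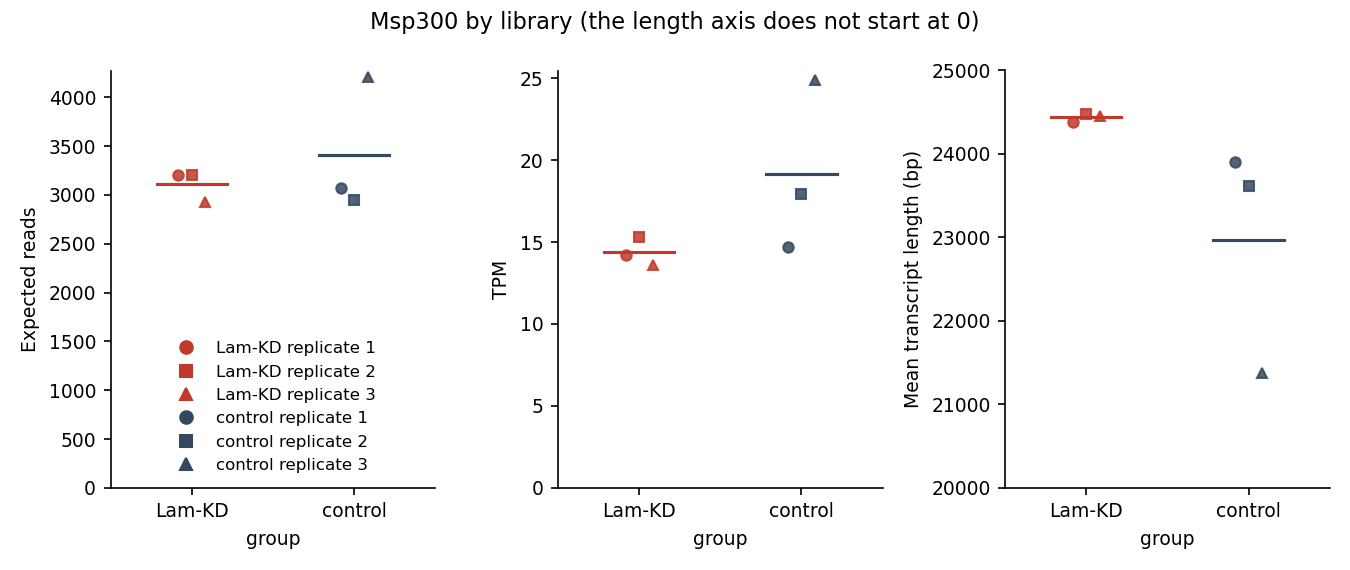
Msp300 in each library, in expected reads (left), TPM (middle) and mean transcript length in bp (right, with an axis that does not start at 0), Lam-KD in red and control in blue, with lines at the group means. Control replicate 3 (triangle) has the most reads (4211), the highest TPM (24.9) and the shortest mean transcript (21381 bp), while the Lam-KD libraries lie close together in each panel.

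The share of Msp300 in the summed TPM of the KASH pair was 45.7%, 47.2% and 45.1% in Lam-KD and 48.9%, 50% and 65.9% in control. The groups did not overlap, although control replicates 1 and 2 lay within 5 points of the Lam-KD libraries. The mean share was 46% ± 1.08 in Lam-KD and 54.9% ± 9.53 in control (SD, n = 3 each), a difference of -8.96 percentage points (exact permutation test, two-sided, P = 0.1, the smallest possible). Without control replicate 3 the difference was -3.47 points, and with shares of expected reads in place of TPM it was -3.43 points.

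**Figure D4:**
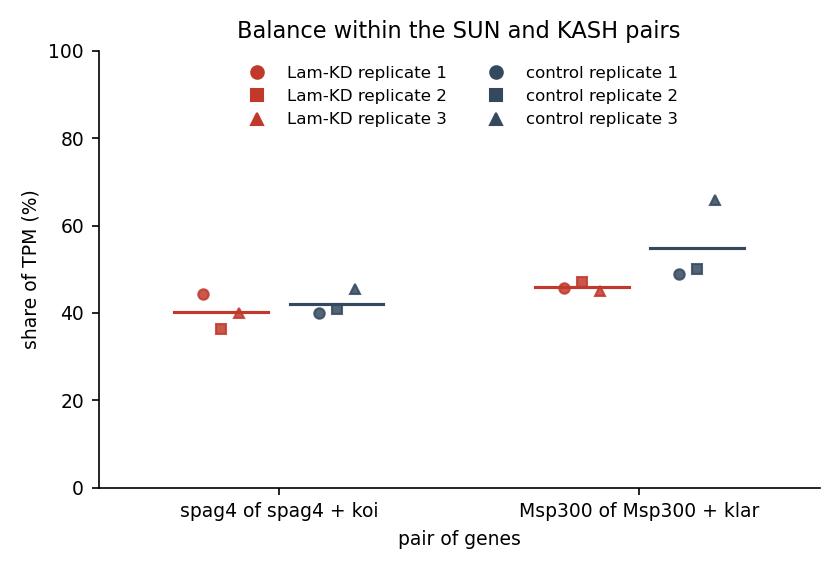
Share of spag4 in the summed TPM of the SUN pair (left) and of Msp300 in that of the KASH pair (right), in percent, for each library of Lam-KD (red) and control (blue), with lines at the group means. The SUN shares overlap between 36.4% and 45.5%, and the KASH shares are lower in Lam-KD, with control replicate 3 apart at 65.9%.

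A longer mean transcript in Lam-KD was also seen for koi, with 2213, 2209 and 2200 bp in Lam-KD and 2138, 2176 and 2172 bp in control. The groups did not overlap, but the difference was small, 0.0299 on the log2 scale (exact permutation test, two-sided, P = 0.1, the smallest possible). As for Msp300, the share of all genes with lengths apart in this way was not computed, so that no background is at hand. Of the other members, Ote and spag4 have a single length in the tables, and LBR, bocks, MAN1, klar, baf and kuk had overlapping lengths (exact permutation test, P between 0.2 and 0.7).

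The position of the genes relative to LADs could be given for the 3 genes on 2L whose start sites were at hand on the dm3 assembly used for the LADs. The transcription start site (TSS) of spag4 lay in a LAD in both stages, of 16800 bp in SpG and 12300 bp in SpCs, which held 100% of the gene. The level of spag4 in larval testes, given above, was 40 TPM or more in each library. Whether spag4 was at the NL in the cells that expressed it was not tested. The paper proposes that some genes activated late in SpCs may keep methylation from early SpCs after leaving the NL. The TSS of baf was in an inter-LAD in both stages, 1762 bp from the nearest LAD in SpG and 3862 bp in SpCs, and no part of the gene was in a LAD. Msp300 combined both states, as its TSS was in an inter-LAD, 8123 bp from the nearest LAD in SpG and 1223 bp in SpCs, while 75.7% of the gene in SpG and 85.3% in SpCs was covered by LADs. LADs were called once per stage from merged replicates, so that these differences between stages have no replicate error. The stages also differ in bam genotype, age and DamID construct, and these cannot be told apart from stage.

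Genes that work with these proteins were viewed as lists. Of all genes tested, 3.19% were called higher and 3.22% lower, and 5.31% and 7.34% passed the adjusted P alone. A single call in a list this short is therefore no result about the list. The 15 nuclear positioning genes were mostly of the dynein, dynactin and kinesin systems, with others such as shot and yuri. They had a median log2 fold change of 0.15, with 1 called lower, 1 lower past the adjusted P alone and 0 higher. The gene called was egl, which encodes an adaptor that binds dynein with BicD. egl had 1.75, 1.7 and 1.15 TPM in Lam-KD and 2.44, 3.27 and 2.79 TPM in control. The groups lay apart, and egl fell by 0.91 on the log2 scale (SE 0.193, adjusted P = 0.0134, edgeR), but at 37 to 82 reads per library its adjusted P was up to 0.0567 when Lam-KD replicate 2 or 3 was left out.

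yuri, a coiled-coil gene needed with spag4 to couple the basal body to the spermatid nucleus, was the second gene of this list past the adjusted P. yuri had 190, 191 and 203 TPM in Lam-KD and 229, 249 and 270 TPM in control. The Lam-KD libraries were lower than each control, with a log2 fold change of -0.42 (SE 0.107, adjusted P = 0.0301, edgeR) below the 1.5-fold threshold in TPM. The adjusted P was up to 0.148 when a Lam-KD replicate was left out. Of the most expressed genes of the list, the dynein light chain gene ctp had a log2 fold change of 0.15 (adjusted P = 0.284) and the dynein regulator nudE one of -0.07 (adjusted P = 0.592). The value of spag4 beside yuri was 0.09, and the difference between them was not tested.

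Regulators of BAF, LEM proteins and membrane sealing showed no call. All 8 genes tested had a log2 fold change between 0.04 and 0.40 (median 0.13), including 0.07 for ball, the kinase that releases BAF from DNA. The phosphatase subunits Pp2A-29B and mts, which act on BAF in the reverse direction, had 0.14 and 0.30 (adjusted P = 0.226 and 0.0815), and the ESCRT-III gene shrb had 0.04.

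The CaaX list holds the enzymes that farnesylate lamin Dm0 and kuk and process their ends. Of its 7 genes 1 was called higher, the protease gene ste24c, and 0 lower, with a median log2 fold change of 0.05. ste24c had 18, 22.8 and 12.9 TPM in Lam-KD and 10.7, 8.99 and 10.7 TPM in control. The groups lay apart, with a log2 fold change of 0.72 (SE 0.189, adjusted P = 0.0325, edgeR), and the adjusted P was between 0.00788 and 0.151 over 13 alternatives, 4 of which did not pass (without Lam-KD replicate 1 or 2 and without control replicate 1 or 2). Its relatives ste24a and ste24b, with log2 fold changes of -0.16 and -0.29, were not past the adjusted P (0.196 and 0.165), and how reads were divided among these related genes is uncertain. The farnesyltransferase subunit gene Fnta had 0.19 (adjusted P = 0.196).

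Of other NE genes, 5 were tested and 0 called, with a median log2 fold change of 0.09. They include Nemp (0.03), CG8111, which encodes TMEM43 (0.29), and the phosphatidate phosphatase gene Lpin (0.09). The maternal lamina gene fs(1)Ya was not tested, with 3 to 10 reads per library.

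The list of Smads and related signalling genes also holds bam, while Med had no matching identifier. Its 5 genes tested had a median log2 fold change of 0.16, with 1 called higher and 0 lower. The gene called was shn (schnurri), a zinc-finger repressor that acts with Mad. shn had 7.75, 8.51 and 7.28 TPM in Lam-KD and 4.97, 5.75 and 3.8 TPM in control. The groups lay apart, with a log2 fold change of 0.63 (SE 0.103, adjusted P = 0.00345, edgeR), and shn passed the adjusted P in all 13 alternatives, at 5.67e-05 to 0.0299. Without control replicate 3 the log2 fold change was 0.54 (adjusted P = 0.000379, edgeR). The mean TPM of shn then differed by less than 1.5-fold, so that it was not called. Mad, the BMP Smad, had 0.08, the activin Smad gene Smox 0.16 and bam, the gene whose promoter drives the Gal4, 0.32 (adjusted P = 0.52, 0.222 and 0.162).

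**Figure D5:**
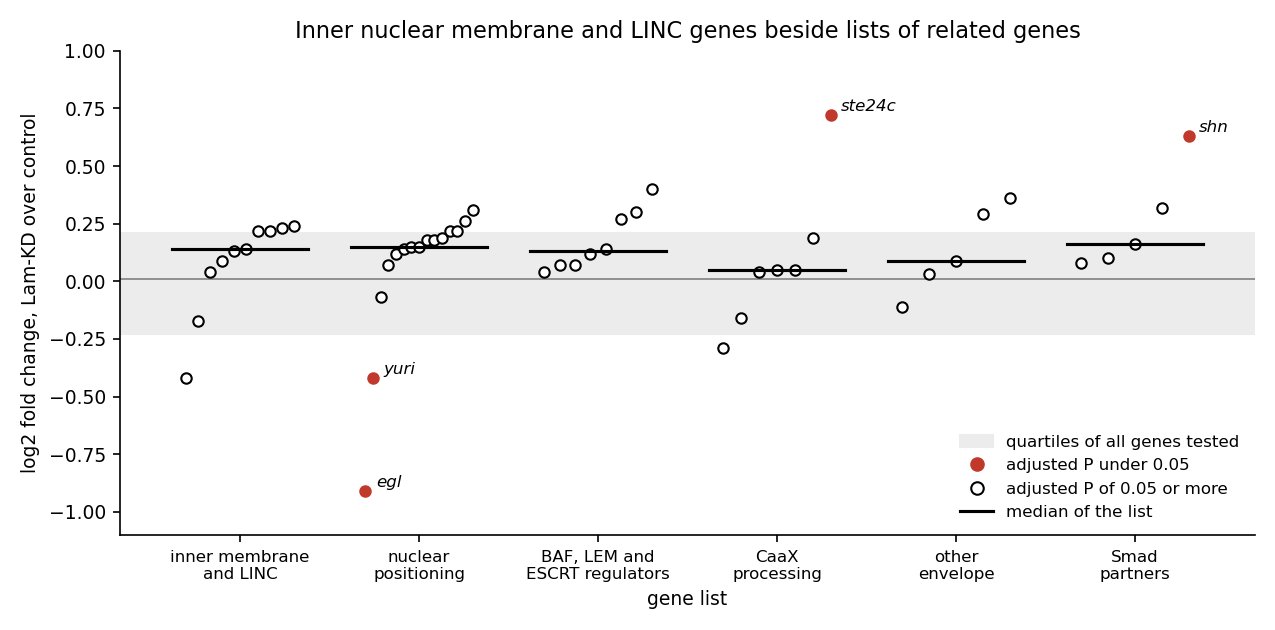
Log2 fold change upon Lam-KD over control (y axis) of the 10 inner nuclear membrane and LINC genes and of 5 lists of related genes, 1 point per gene tested, with lines at the medians and a grey band for the quartiles of all genes tested. Filled points passed the adjusted P of 0.05 (egl, yuri, ste24c and shn), and none of the 10 genes did.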

How the data were processed

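Per the paper's methods, RNA of larval testes was poly(A)-selected and sequenced in 3 Lam-KD and 3 control libraries. The authors used Salmon with the BDGP5.78 annotation, and deposited for each gene and library expected counts without normalization, TPM, and the mean length of its transcripts. LADs were called by the authors with an HMM in 300-bp bins on dm3 from merged replicates and deposited as start and end positions.

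Expected counts were rounded and tested with edgeR 4.0.16 (TMM, quasi-likelihood, R 4.3.3) over genes with at least 10 reads in at least 3 libraries, without Lam and LamC. SE is the size of the log2 fold change over the root of the F statistic. DESeq2 1.42.0 was an alternative. An adjustment of P is not given in the paper's methods, which used DESeq2. The test was also run on simulated counts with the same spread in all libraries, so that this check does not cover a deviating library such as control replicate 3. Shares, sums and lengths were compared by exact permutation with scipy 1.17.1. With 5651960 to 7437111 reads per library, genes with few reads have a wide error. TSS positions came from a gene table of the study on dm3, other annotation from Release 6.

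The members and lists were chosen with earlier results of these data known. All members are named, and of each list the called genes and up to 3 more with the highest TPM, and other names were chosen after their values were seen. Of the listed genes, 3 had no matching identifier and were not analysed here. Columns without a sample numbered 0.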

Additional observations from a re-analysis of the deposited data

How the results depend on the processing

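None of the 10 genes was called under any of the alternatives run. With the adjusted P alone, where 0 passed, 3 passed at the unadjusted P (koi, baf, Msp300) and 2 with the replicate number as a block (koi, log2 fold change 0.22, adjusted P = 0.0484, and Msp300, -0.38, adjusted P = 0.0261). The block also gave 827 called genes in all, against 661. More genes in all also passed the adjusted P alone with the block than in the main fit. The share of the 10 genes that passed with the block did not exceed the share of all genes tested. The main fit did not take replicate numbers as pairs, as the paper's methods describe no pairing. The deviations of same-numbered libraries correlated by 0.0592, 0.0732 and 0.177. Of differently numbered libraries, Lam-KD replicate 2 and control replicate 1 correlated by 0.107, and the others by -0.156 to -0.0108. These weak correlations lean toward shared deviations of same-numbered libraries but do not settle whether the numbers are pairs. With single libraries left out, 0 to 1 of the 10 genes passed the adjusted P alone (Msp300 without control replicate 1, where 1099 of 10183 genes passed). Over these settings, 355 to 1856 genes in all passed the adjusted P alone and 328 to 820 were called. Taking the fold from the edgeR fit gave 274 higher and 414 lower calls, 39.8% higher against 49.8%. Without control replicate 2, 60.4% of calls were higher.

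Direction turned for results near 0. For spag4, the log2 fold change with a library left out was -0.01 to 0.18. The difference in the share of spag4 ran from -3.81 (without Lam-KD replicate 1) to 0.137 percentage points (without Lam-KD replicate 2). The log2 difference of the summed LEM genes was -0.0276 when TPM was rescaled by median ratios and -0.0538 to 0.173 with a library left out. For mean transcript lengths on the log2 scale, bocks ran from -0.00147 to 0.00742 and klar from -0.0246 to 0.00502 with a library left out, and MAN1 was 0.00291 with effective lengths. The cause was not tested. Depth was not the same for all genes, as LBR, Ote, bocks and spag4 had at most 441 reads in each library.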
